A study of Mus musculus with 31 samples.

Results

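The genes described here are the enzymes and transporters that carry glucose to pyruvate, those that set the level of fructose-2,6-bisphosphate, and those of the pentose phosphate pathway. They form a list of 34 mouse genes matched by symbol to the rows of 3 gene count tables, which hold 55487, 56980 and 56941 rows. All 34 have a row in each table, and where a symbol had several rows the row with the most counts was used. They fall into 7 groups by step. The first are glucose uptake and phosphorylation (Slc2a1, Slc2a3, Slc2a4, Hk1, Hk2 and Hkdc1) and the steps from hexose phosphate to triose phosphate (Gpi1, Pfkl, Pfkm, Pfkp, Aldoa, Aldoc and Tpi1). Next come fructose-2,6-bisphosphate control (Pfkfb1 to Pfkfb4 and Tigar), the steps from triose phosphate to pyruvate (Gapdh, Pgk1, Pgam1, Eno1, Eno2, Eno3 and Pkm) and glucose-1-phosphate exchange (Pgm1 and Pgm2). The oxidative (G6pdx, Pgls and Pgd) and non-oxidative (Rpia, Rpe, Tkt and Taldo1) arms of the pentose phosphate pathway complete the list.

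Glycolysis splits glucose into pyruvate with a small yield of ATP, and its commitment step is made by phosphofructokinase, which fructose-2,6-bisphosphate activates. The PFKFB enzymes make and break that activator, each with its own balance of kinase and phosphatase activity, while Tigar only breaks it down. The pentose phosphate pathway leaves glycolysis at glucose-6-phosphate, where an oxidative arm yields NADPH and a reversible, non-oxidative arm exchanges ribose precursors with glycolytic sugars. Many steps are shared by isoenzymes from separate genes, and Hif1a and Myc are textbook regulators of genes at many of these steps in tumour cells.

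Gene expression was measured by RNA sequencing in 31 samples of 11 groups of Panc02 cells, a murine pancreatic adenocarcinoma line. The cell line field of the labels says Panc02 for 21 samples, but for the 10 samples of the rescue table it holds a different number each, running from Panc03 to Panc12. These were taken here as Panc02, the line that the study describes for such spheroids, and this reading was not tested. A first table held wild-type spheroids grown in Matrigel without supplement (Ctrl, n = 3), with conditioned medium of untreated bone marrow macrophages (M0-CM, n = 3) or with medium of macrophages given IFNγ and lipopolysaccharide (M1-CM, n = 3). The next, called the culture table here, crossed genotype with culture: wild-type (WT) or Cxcl5-/- cells on plastic (2D WT and 2D Cxcl5-/-) or as Matrigel spheroids (3D WT and 3D Cxcl5-/-), with n = 3 in each of the 4 groups and no macrophage medium. The last table, called the rescue table here, held 3D spheroids of WT cells (n = 2) and of Cxcl5-/- cells (n = 2). It also held spheroids of Cxcl5-/- cells overexpressing a stabilised mutant Hif1a (Hif1aOE, n = 3) and Cxcl5-/- cells overexpressing Myc (MycOE, n = 3), again without macrophage medium. By the study's methods the macrophage media also held L929 cell supernatant, which is not described for Ctrl. Ctrl medium was matched to them in serum, while spheroids of the culture and rescue tables had medium with more serum. The knockout cells were made with CRISPR/Cas9 delivered by lentiCRISPRv2 and selected with puromycin, and the overexpressing cells carried a retroviral vector; whether the Cxcl5-/- cells were clonal is not given in the sources used here. The study says of its experiments in general that they used biological replicates, but neither it nor the labels say which of these RNA samples were separate cultures. The p-values therefore measure only the spread between these samples, which may be technical.

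Library totals ran from 41542533 to 78498230 counts. The rescue WT libraries stood apart from all others, with 43037 to 43048 genes detected against 26886 to 31338 in the rest of that table. Cxcl5 itself did not fall in the 3D libraries labelled Cxcl5-/-. Its log2 difference from WT, given like all such values ± SE, was -0.47 ± 0.14 (adjusted p = 0.0705) in 2D, 0.91 ± 0.14 (adjusted p = 0.000173) in 3D and -0.78 ± 0.14 (adjusted p = 0.00107) in the rescue table. The study reports that it checked the knockout at the protein level, by immunoblot with an antibody to CXCL5. A count over the whole gene does not show whether the edited part of the transcript was intact, so the libraries are named by their labels throughout. Against rescue Cxcl5-/-, Hif1a was higher in Hif1aOE (0.94 ± 0.10, adjusted p = 2.99e-05) and Myc in MycOE (4.54 ± 0.16, adjusted p = 1.93e-08). Hif1a was also higher in MycOE (0.90 ± 0.10, adjusted p = 3.08e-05) and did not pass the test between the lines (-0.04 ± 0.09, adjusted p = 0.826), while Myc was not called in Hif1aOE (0.25 ± 0.13, adjusted p = 0.175). Against rescue WT, Hif1a in Hif1aOE was not called (-0.24 ± 0.10, adjusted p = 0.0999), whereas Myc in MycOE was far higher (3.36 ± 0.15, adjusted p = 1.05e-07). Of 7 epithelial markers, Epcam and Cdh1 stayed under 1 CPM (counts per 1e6 counts of the scaled library) in every library, although the cells are labelled pancreatic cancer cells. Krt8, Krt18 and Sox9 were above it throughout. Among 7 macrophage markers, Adgre1, Csf1r and Itgam stayed under 1 CPM in every library, as did Ptprc outside rescue WT. The others, Cd14, Cd68 and Lyz2, each reached 1 CPM in at least 1 library of every group. The sum of all 7 ran from 28.0 CPM in a 2D WT library to 76.7 CPM in a MycOE library.

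Per kilobase of exon, counted over the union of a gene's annotated exons, the isoenzymes of most steps were far from equal. Slc2a1, the basal glucose transporter, made up at least 99.3% of the mean transcript level of Slc2a1, Slc2a3 and Slc2a4 in every group of the culture and rescue tables. Hk1 held 72.5% of the hexokinase level in 2D WT, Pfkl 46.5% of the phosphofructokinase level and Pgm1 80.5% of the phosphoglucomutase level. The enolase level was divided between Eno1 (53.9%) and Eno3 (45.8%) in 2D WT, with 0.27% from Eno2, the isoenzyme typical of neurons. The enolase and phosphofructokinase shares rest on unequal lengths, 5379 bases for Eno1, 1739 for Eno3, 13401 for Pfkp and 6675 for Pfkl. In counts, Eno1 was well above Eno3 in 2D WT, and Pfkp was about level with Pfkl (mean log2 ratio 0.08). Pfkfb4 was the leading PFKFB gene in 2D WT at 60.1%, and Pfkfb3 held 1.06%. Hkdc1 had a count of 0 in all 12 libraries of the culture table, and Slc2a3 stayed under 0.2 CPM there. Neither passed the filter on low counts, so 32 of the 34 genes were tested in that table.

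Growth of WT cells as 3D spheroids was accompanied by higher transcript levels along most of glycolysis. Relative to 2D WT, 19 of the 32 tested genes rose and 6 fell at an adjusted p below 0.05, against 22.2% and 22% of all 21367 genes tested. The median log2 fold change was 0.98 over these genes and 0.00 over all. All 7 genes of the steps from hexose phosphate to triose phosphate rose, as did 3 of 4 tested uptake and phosphorylation genes and 6 of 7 genes from triose phosphate to pyruvate. In the pentose phosphate arms the picture was different, since 1 of 7 genes rose and 3 fell. The 19 rises held when any library was left out. Of the 6 falls, those of Rpia, G6pdx and Pgd were lost when certain libraries were left out (adjusted p up to 0.0524 for Rpia, 0.0663 for G6pdx and 0.0704 for Pgd). Under library-total scaling the all-gene median became -0.21, and the calls over all genes went from 4752 higher and 4707 lower (TMM) to 3563 and 6712. Of the genes described, 10 were then lower. Summed epithelial markers were 546 to 593 CPM in 2D WT and 853 to 1097 CPM in 3D WT, with 4 of 5 tested markers higher and 1 lower. Summed macrophage markers were 28.0 to 32.4 CPM and 42.2 to 46.5 CPM, with 4 of 5 tested markers higher. The part of either in the changes was not tested.

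Among uptake genes, Slc2a1 measured 31, 25.3 and 23.9 CPM in 2D WT and 170.4, 137 and 153 CPM in 3D WT. Every 3D library lay far above every 2D library (2.52 ± 0.11, adjusted p = 1.08e-09). Hk2, the hexokinase that is inducible in tumours, went from 25.5, 23.2 and 25.6 CPM to 109, 114 and 93.2 CPM, again without overlap (2.09 ± 0.09, adjusted p = 1.3e-09). Hk1 measured 92.1, 83.9 and 105 CPM in 2D and 291, 236 and 259 CPM in 3D (1.48 ± 0.12, adjusted p = 2.56e-07). Slc2a4, the insulin-responsive transporter, was near the detection limit, at 0, 0.158 and 0.236 CPM in 2D and 0.969, 0.187 and 1.11 CPM in 3D, and did not pass the test (adjusted p = 0.0781).

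Aldoc, an aldolase best known from brain, showed the widest change of the tested genes. It measured 1.52, 1.32 and 2.03 CPM in 2D WT and 42.1, 46.7 and 49.5 CPM in 3D WT (4.82 ± 0.19, adjusted p = 6.5e-10). Aldoa, the main aldolase, had a far higher level throughout and went from 861, 747 and 833 CPM to 3365, 2451 and 3002 CPM (1.85 ± 0.12). The Aldoc share of the aldolase level per kilobase was 0.177% in 2D WT and 1.41% in 3D WT. The phosphofructokinases separated in size of change. Pfkp (1.73 ± 0.08, adjusted p = 2.25e-09) and Pfkl (1.57 ± 0.11, adjusted p = 6.66e-08) rose by more than Pfkm, the muscle type (0.55 ± 0.09, adjusted p = 0.000235). Gpi1, which makes fructose-6-phosphate, changed by 2.04 ± 0.11 and Tpi1, which interconverts the triose phosphates, by 1.06 ± 0.11.

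The genes that control fructose-2,6-bisphosphate did not move together. Pfkfb3, the form with the strongest kinase bias, measured 0.732, 1.22 and 0.876 CPM in 2D WT and 7.21, 4.90 and 6.11 CPM in 3D WT. The level was low, but the groups were separate (2.68 ± 0.29, adjusted p = 5.04e-06). Pfkfb1 fell (-0.77 ± 0.16, adjusted p = 0.00114), from 5.32 to 5.78 CPM to 2.97 to 3.60 CPM. Tigar, the fructose-2,6-bisphosphatase, also fell (-1.12 ± 0.13, adjusted p = 1.1e-05), from 14.2 to 17.3 CPM to 6.29 to 8.57 CPM. Pfkfb2 (-0.12 ± 0.09, adjusted p = 0.289) and Pfkfb4 (-0.15 ± 0.12, adjusted p = 0.332) did not pass the test.

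Below the triose phosphates, Pgk1, the first ATP-yielding step, measured 1012, 970.2 and 1015 CPM in 2D WT and 3240.00, 3334 and 2990.1 CPM in 3D WT (1.67 ± 0.09, adjusted p = 7.44e-09). Pgam1, Eno1 and Pkm, the pyruvate kinase of proliferating cells, rose with log2 fold changes of 1.74 ± 0.09, 1.29 ± 0.10 and 0.90 ± 0.13, and Eno2 by 0.88 ± 0.13. Eno3, the muscle enolase, was the exception and fell from 293, 276 and 310.4 CPM to 149.8, 147 and 139.8 CPM (-1.01 ± 0.09, adjusted p = 7.66e-07), and held 14.7% of the enolase level per kilobase in 3D WT. Gapdh needs separate treatment, because 84 near-identical copies of it held 88.4 to 98.0% of the counts that it and they received across all 31 libraries. Its own row rose by 1.38 ± 0.10 and the sum of the row and its copies by 1.69, from a mean of 740.3 CPM to one of 2379.99 CPM. Pgm1, which links glucose-6-phosphate with glucose-1-phosphate and so with glycogen, rose from 89.4 to 102 CPM to 310.4 to 393 CPM (1.91 ± 0.10, adjusted p = 6.45e-09). Pgm2 measured 18.4 to 23.1 CPM and 22.7 to 24 CPM (adjusted p = 0.169).

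The pentose phosphate genes changed little in comparison. G6pdx, whose enzyme commits glucose-6-phosphate to the oxidative arm, measured 183, 181 and 191 CPM in 2D WT and 160.2, 152 and 147 CPM in 3D WT (-0.27 ± 0.08, adjusted p = 0.00926). Pgd, the enzyme that releases carbon dioxide in that arm, changed by -0.41 ± 0.12, adjusted p = 0.0101, and Pgls, the lactonase between them, by 0.70 ± 0.11, adjusted p = 0.000133. In the non-oxidative arm the transketolase Tkt spanned 348 to 401 CPM in 2D and 369.7 to 440.3 CPM in 3D, so the groups overlapped (adjusted p = 0.72). Taldo1 (adjusted p = 0.372) and Rpe (adjusted p = 0.233) did not pass the test either, and Rpia fell by a small amount (-0.36 ± 0.10, adjusted p = 0.00709).

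**Figure D1:**
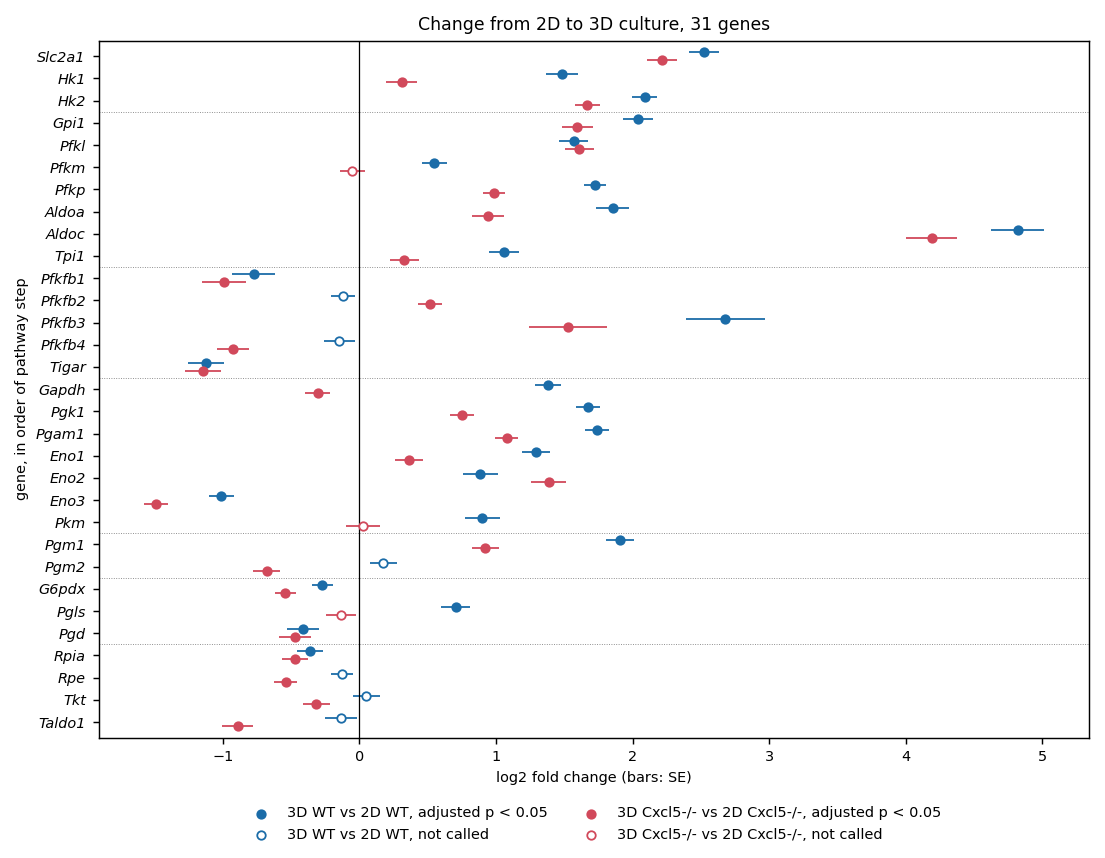
Log2 fold change of 3D over 2D culture for 31 genes in WT cells (blue) and in libraries labelled Cxcl5-/- (red), with bars of 1 SE from edgeR's quasi-likelihood fit and filled symbols for an adjusted p below 0.05 (n = 3 per group); Slc2a3, Slc2a4 and Hkdc1 are left out. Aldoc lies farthest to the right in both genotypes, and Gapdh, Hk1 and Pkm show the blue symbol well to the right of the red one.

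The 250 bases upstream of each annotated RefSeq start (GRCm38.p6) were read for 32 of the 34 genes, which had 49 windows. The letters ACGTG, 1 form of the core recognised by Hif1 complexes, occurred on either strand in at least 1 window of 11 of the 32 genes (34.4%) and in 18.5% of 27025 genes. The form GCGTG was not counted, so a window without ACGTG is not shown to lack the core. Per window the shares were 30.6% of 49 and 16.6% of 32851. CACGTG, which contains ACGTG and is the letters of the E-box bound by Myc, was in windows of Pfkfb2, Pfkfb3 and Pfkm and in 6.02% of all windows. A match is a run of letters and not a shown binding site. Of the 32 genes 21 held no ACGTG, among them Aldoc, Gpi1, Gapdh, Eno1 and Pfkp, which also rose in 3D WT. The 5 windows printed here, chosen after the values were seen, belong to genes whose levels differ between groups. Those of Slc2a1, Hk2 and Pgk1 hold ACGTG or its reverse complement and those of Pfkp and Tkt do not, although both of the latter hold GCGTG. They read 5′ to 3′ toward the start, with ACGTG or its reverse complement CACGT in capitals.
Slc2a1 (chr4:119108495-119108744, plus strand): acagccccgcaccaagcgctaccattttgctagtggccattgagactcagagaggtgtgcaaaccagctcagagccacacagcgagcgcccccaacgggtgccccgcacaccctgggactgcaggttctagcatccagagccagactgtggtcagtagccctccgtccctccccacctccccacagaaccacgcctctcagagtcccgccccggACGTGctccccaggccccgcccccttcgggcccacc
Hk2 (chr6:82774455-82774704, minus strand): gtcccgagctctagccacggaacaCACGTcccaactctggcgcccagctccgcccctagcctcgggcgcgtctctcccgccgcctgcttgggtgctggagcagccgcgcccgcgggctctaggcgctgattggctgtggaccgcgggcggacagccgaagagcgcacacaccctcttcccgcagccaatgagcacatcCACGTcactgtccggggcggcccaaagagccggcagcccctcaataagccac
Pgk1 (chrX:106186850-106187099, plus strand): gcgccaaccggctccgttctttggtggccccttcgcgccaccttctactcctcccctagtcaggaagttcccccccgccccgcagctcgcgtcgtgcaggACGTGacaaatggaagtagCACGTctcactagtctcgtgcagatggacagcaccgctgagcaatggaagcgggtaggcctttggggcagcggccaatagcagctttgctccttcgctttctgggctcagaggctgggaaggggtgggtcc
Pfkp (chr13:6648772-6649021, minus strand): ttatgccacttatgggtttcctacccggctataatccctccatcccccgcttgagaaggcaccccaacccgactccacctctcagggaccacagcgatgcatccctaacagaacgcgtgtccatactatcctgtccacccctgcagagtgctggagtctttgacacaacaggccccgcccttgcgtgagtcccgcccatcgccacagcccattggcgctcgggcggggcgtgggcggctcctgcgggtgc
Tkt (chr14:30548881-30549130, plus strand): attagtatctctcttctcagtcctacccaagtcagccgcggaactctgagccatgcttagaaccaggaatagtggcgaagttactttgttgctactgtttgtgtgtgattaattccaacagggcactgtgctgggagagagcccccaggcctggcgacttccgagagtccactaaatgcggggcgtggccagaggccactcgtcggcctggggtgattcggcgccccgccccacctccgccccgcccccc

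In the libraries labelled Cxcl5-/-, 3D culture was accompanied by a different balance. Against 2D Cxcl5-/-, 16 of 32 genes rose and 12 fell, with 28.7% and 28.2% of all genes called in those directions, and the median was 0.17 beside 0.11 over all genes. Slc2a1 (2.21 ± 0.11), Hk2 (1.67 ± 0.09), Gpi1 (1.60 ± 0.11), Pfkl (1.61 ± 0.11) and Aldoc (4.19 ± 0.19) rose by more than 1.5 on the log2 scale. Pkm (0.02 ± 0.12, adjusted p = 0.885) and Pfkm (-0.05 ± 0.09, adjusted p = 0.652) did not pass the test, and all 4 non-oxidative pentose phosphate genes fell, Taldo1 most (-0.89 ± 0.12). Summed fibroblast markers were 172 to 185 CPM in 2D Cxcl5-/- and 396 to 453 CPM in the 3D libraries, with 5 of 6 higher. Summed epithelial markers were 450 to 484 CPM and 217 to 236 CPM, and the part of either was not tested. The direction for Gapdh depended on the copies: its own row fell by 0.31 ± 0.09 (adjusted p = 0.0129) and the sum with the copies rose by 0.83 (adjusted p = 3.66e-05). The calls for Hk1, Tpi1 and Eno1 among the rises, and for Gapdh and Tkt among the falls, were lost when certain libraries were left out.

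On plastic, few of these genes were called between the genotypes. In 2D Cxcl5-/- against 2D WT none of the 32 genes rose and 2 fell, beside 3.86% and 3.17% of all genes. Pfkp, the platelet-type phosphofructokinase, measured 128, 126 and 139 CPM in 2D WT and 73.1, 72.8 and 76.8 CPM in 2D Cxcl5-/- (-0.82 ± 0.08, adjusted p = 1.55e-05). Every library of the latter group lay below every library of the former. Slc2a1 was 31, 25.3 and 23.9 CPM against 20.3, 19.7 and 20.4 CPM (-0.41 ± 0.10, adjusted p = 0.0286). Its call was lost under several choices, for instance without 2D WT replicate 1 (adjusted p = 0.18). Summed macrophage markers were 28.0 to 32.4 CPM in 2D WT and 48.7 to 49.3 CPM in 2D Cxcl5-/-, and summed epithelial markers 546 to 593 CPM and 450 to 484 CPM. Their part was not tested.

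In spheroids the genotypes differed at nearly every step. Of 32 genes, 26 were lower and 2 higher in the 3D libraries labelled Cxcl5-/- than in 3D WT, beside 25.3% and 19.7% of all genes. The median log2 difference was -0.70 over these genes and -0.04 over all. The separate rescue table, which shares no sample with the culture table, gave 25 lower and 3 higher of 34, beside 24.3% and 17.6%, with medians of -1.09 and -0.30. Under library-total scaling the all-gene median of the culture table comparison became 0.35, and the calls over all genes went from 4218 higher and 5397 lower (TMM) to 7671 and 2445. Of the genes described, 17 were then lower, and the calls for Hk2, Gpi1, Pfkm, Pfkfb1, Pfkfb3, G6pdx, Rpia, Rpe and Tkt were lost. Of the 25 lower calls in the rescue table, 23 held when any library was left out. Each such fit of a group of 2 leaves 1 library, which is assumed to vary like the other groups. Summed fibroblast markers (6 genes, none under 1 CPM in all libraries of these 4 groups) were 156 to 169 CPM in 3D WT and 396 to 453 CPM in those labelled 3D Cxcl5-/-. They were, in the rescue table, 77.0 to 81.4 CPM against 458 to 466 CPM. Summed epithelial markers (7 genes, with Epcam and Cdh1 under 1 CPM in all and Krt19 under it in both Cxcl5-/- groups) were 853 to 1097 CPM against 217 to 236 CPM, and 856 to 903 CPM against 287 to 302 CPM. Krt7 went the other way in the culture table, where it was under 1 CPM in all 3D WT libraries but not in all 3D Cxcl5-/- libraries. Summed macrophage markers overlapped in the culture table (42.2 to 46.5 CPM against 43.3 to 63.2 CPM) and were 43.2 to 43.3 CPM against 34.5 to 34.7 CPM in the rescue table. The study describes spheroids seeded from cancer cells alone, with no fibroblasts or macrophages added. The part of these markers in the differences below was not tested. In such bulk samples fewer cells with a transcript and less of it per cell cannot be told apart.

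Slc2a1 measured 170.4, 137 and 153 CPM in 3D WT and 94.1, 88.5 and 97.7 CPM in those labelled 3D Cxcl5-/- (-0.72 ± 0.10, adjusted p = 7.21e-05). In the rescue table it measured 268 and 281 CPM in WT and 62.9 and 54.8 CPM in Cxcl5-/- (-2.22 ± 0.14, adjusted p = 8.16e-07). No library of the lower group reached the higher group in either table. Slc2a4 had 118 counts over the 3 libraries of 3D WT and 0 over the 3 labelled 3D Cxcl5-/-, at least 49.4-fold lower against a floor of 3 counts over the group (adjusted p = 0.00302). In the rescue table it had 77 counts over 2 WT libraries and 0 in Cxcl5-/-, at least 27.4-fold lower (adjusted p = 0.0463). That call was lost when certain libraries were left out, without a filter and by DESeq2's Wald test. The rescue WT libraries had 43037 to 43048 genes detected, against 26886 to 26948 in rescue Cxcl5-/-. The part of that in this gap was not tested. Hkdc1, with 18 counts over the rescue WT libraries and 0 in Cxcl5-/-, did not pass the test (adjusted p = 0.0822), nor did Slc2a3 (adjusted p = 0.164).

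The hexokinases differed in which gene showed the wider gap. Hk1 was 291, 236 and 259 CPM in 3D WT and 108, 120.5 and 142 CPM in 3D Cxcl5-/- libraries (-1.09 ± 0.12, adjusted p = 5.5e-06), and -0.92 ± 0.09 in the rescue table. Hk2 was 109, 114 and 93.2 CPM against 65.4, 73.4 and 69 CPM (-0.61 ± 0.09, adjusted p = 8.76e-05). It was 183 and 169.5 CPM against 42.1 and 41.3 CPM in the rescue table (-2.08 ± 0.14, adjusted p = 1.11e-06). The Hk2 gap was thus the smaller one in the culture table and the larger one in the rescue table.

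Pfkp showed the clearest gap among the phosphofructokinases in both tables. Its levels were 443, 454 and 405 CPM in 3D WT and 143, 142 and 157 CPM in 3D Cxcl5-/- libraries (-1.56 ± 0.08, adjusted p = 8.4e-09). They were 389 and 381 CPM and 97.4 and 88.6 CPM in the rescue table (-2.05 ± 0.09, adjusted p = 8.82e-08). Per kilobase Pfkp was 31% of the phosphofructokinase level in 3D WT and 15.3% in 3D Cxcl5-/- libraries, and 36.3% and 16.8% in the rescue groups. Pfkl, the liver type, held 52.7% and 69.0% in the culture table, where it did not pass the test (-0.16 ± 0.10, adjusted p = 0.233). It was lower in the rescue table (-0.80 ± 0.08, adjusted p = 2.26e-05). Pfkm was lower in the culture table (-0.59 ± 0.09, adjusted p = 0.000152) and not called in the rescue table (0.11 ± 0.12, adjusted p = 0.462).

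Aldoa was lower in both tables (-1.06 ± 0.12 and -1.26 ± 0.11), as was Tpi1 (-1.01 ± 0.11 and -1.73 ± 0.13) and Gpi1 (-0.51 ± 0.11 and -0.70 ± 0.10). Aldoc was the exception and differed between the tables. It measured 42.1, 46.7 and 49.5 CPM in 3D WT and 50.1, 40.3 and 43.1 CPM in 3D Cxcl5-/- libraries, which overlapped (-0.05 ± 0.16, adjusted p = 0.821). In the rescue table it measured 0.684 and 2.46 CPM in WT and 14.9 and 15.8 CPM in Cxcl5-/- (3.28 ± 0.35, adjusted p = 2.5e-05). The 3D WT and rescue WT groups, which share genotype and culture by label, were therefore far apart in Aldoc. So were 3D WT and the Ctrl spheroids of the medium table (0.522 to 1.22 CPM), which were grown with less serum. Levels set across tables that were scaled separately carry no test.

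The PFKFB genes parted in direction. Pfkfb2, the heart type, was higher in the 3D Cxcl5-/- libraries, at 32.3, 31.4 and 31 CPM against 22.7, 21.3 and 20.4 CPM (0.56 ± 0.09, adjusted p = 0.000145). It was also higher in the rescue table (0.54 ± 0.13, adjusted p = 0.00786), where the call was lost when certain libraries were left out. Pfkfb4 measured 37.3, 24.9 and 31.7 CPM in 3D WT and 18.9, 18.4 and 18.1 CPM in 3D Cxcl5-/- libraries (-0.76 ± 0.12, adjusted p = 0.00013). It measured 28.5 and 25.3 CPM against 13.6 and 13.4 CPM in the rescue table (-0.999 ± 0.11, adjusted p = 3.41e-05). Pfkfb3 was lower in both (-1.11 ± 0.27, adjusted p = 0.00419, and -1.96 ± 0.25, adjusted p = 8.81e-05). The Pfkfb2 share of the PFKFB level per kilobase was 27.2% in 3D WT and 47.8% in 3D Cxcl5-/- libraries, with 23.7% and 43.8% in the rescue groups. Tigar did not pass the test in either table (adjusted p = 0.585 and 0.262).

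From triose phosphate to pyruvate, 6 of 7 genes were lower in both tables and Eno2 was higher in both. Pgk1 fell from 2990.1 to 3334 CPM to 1285 to 1543 CPM in the culture table and from 2290.4 to 2352 CPM to 775 to 787 CPM in the rescue table (-1.14 ± 0.09 and -1.57 ± 0.11). Pkm measured 7329, 5677 and 5959.7 CPM in 3D WT and 3329, 2469 and 3308 CPM in 3D Cxcl5-/- libraries (-1.06 ± 0.13, adjusted p = 1.53e-05). Eno2 measured 8.98, 8.29 and 8.49 CPM and 15, 15.6 and 14.8 CPM in the same groups (0.82 ± 0.12, adjusted p = 0.000124). In the rescue table it measured 10.1 and 12 CPM and 18.4 and 19.1 CPM (0.76 ± 0.14, adjusted p = 0.00132), and the groups overlapped in neither table. The Gapdh row differed by -1.97 ± 0.10 and -2.46 ± 0.15, and the sum with its copies by -1.17 and -1.37. Pgm1 (-0.98 ± 0.10 and -1.63 ± 0.10) and Pgm2 (-0.80 ± 0.10 and -0.77 ± 0.11) were lower as well.

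With TMM scaling, all 4 genes of the non-oxidative pentose phosphate arm were lower in both tables. Tkt measured 440.3, 369.7 and 376 CPM in 3D WT and 288, 241 and 274 CPM in 3D Cxcl5-/- libraries (-0.56 ± 0.10, adjusted p = 0.000403). It measured 279 and 270.2 CPM against 136 and 145 CPM in the rescue table (-0.97 ± 0.08, adjusted p = 5.83e-06). Taldo1, the transaldolase, differed by -0.74 ± 0.12, adjusted p = 0.000154, and by -1.25 ± 0.14, adjusted p = 4.57e-05. In the oxidative arm G6pdx was lower in both (-0.26 ± 0.08 and -0.82 ± 0.10). Pgls was lower in the culture table (-0.64 ± 0.11, adjusted p = 0.00034) and not called in the rescue table (-0.21 ± 0.15, adjusted p = 0.27). For Pgd the rescue table gave a call (-0.27 ± 0.09, adjusted p = 0.0385) and the culture table none (-0.25 ± 0.12, adjusted p = 0.0986). The calls for G6pdx, Rpia and Pfkfb1 in the culture table, and for Pgd in the rescue table, were lost when certain libraries were left out. Under library totals the G6pdx and Rpia differences in the culture table turned to 0.13 and 0.03. Those of Tkt and Rpe shrank to -0.18 and -0.005 there and were not called. Taldo1 alone in the non-oxidative arm then kept its culture table call.

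**Figure D2:**
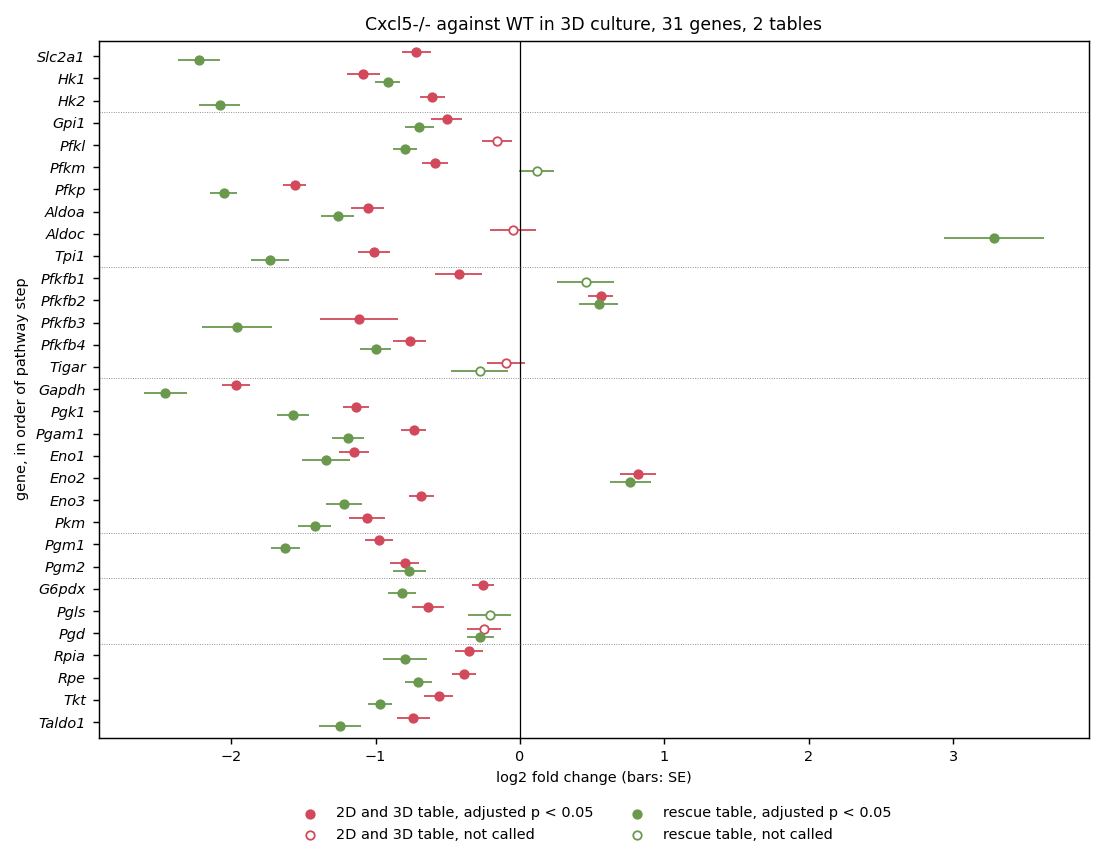
Log2 difference between Cxcl5-/- and WT spheroids in the culture table (red, n = 3 against 3) and the rescue table (green, n = 2 against 2) for 31 genes, with bars of 1 SE and filled symbols for an adjusted p below 0.05. Most symbols lie left of 0 in both tables; Pfkfb2 and Eno2 lie right of it in both, and Aldoc only in green.

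Whether the genotype difference itself changed with culture was asked with an interaction term. It was negative and called for 20 of 32 genes and positive for 1, beside 16.1% and 11.1% of all genes. The widest called interactions were those of the Gapdh row (-1.69 ± 0.13, adjusted p = 2.02e-06), Hk1 (-1.18 ± 0.16, adjusted p = 0.000164) and Pfkfb3 (-1.15 ± 0.40, adjusted p = 0.0453). With its copies added, the Gapdh interaction was -0.85 ± 0.16 (adjusted p = 0.00188) and no longer among the widest. Pfkfb2 was the positive one (0.64 ± 0.12, adjusted p = 0.00186). Slc2a1 (-0.31 ± 0.15, adjusted p = 0.134), Pfkl (0.04 ± 0.15, adjusted p = 0.897), Aldoc (-0.63 ± 0.25, adjusted p = 0.0765) and Tkt (-0.36 ± 0.14, adjusted p = 0.0679) did not pass the test. With library totals, 10 negative calls were lost (Hk2, Gpi1, Pfkm, Pfkp, Tpi1, Pfkfb3, Pfkfb4, Pgam1, Eno3 and Rpe), and over all genes 4585 were positive and 1359 negative in place of 2376 and 3431. The calls for Gpi1, Pfkfb3, Hk2, Eno3 and Rpe were also lost when certain libraries were left out.

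Other genes of the pathway, a list of 30, did not show one direction. In 3D WT against 2D WT 8 of 18 tested rose and 4 fell, beside 22.2% and 22% of all genes. Among those that rose were Slc2a8 (2.15 ± 0.20) and Bpgm (1.19 ± 0.14), the mutase that makes 2,3-bisphosphoglycerate. In 3D Cxcl5-/- against 3D WT libraries 4 of 18 were higher and 4 lower, beside 19.7% and 25.3% of all genes, so the counts were near those over all genes. Bpgm was lower, with means of 52.8 ± 9.999 CPM in 3D WT and 20.9 ± 3.25 CPM (SD, n = 3) in 3D Cxcl5-/- libraries (-1.34 ± 0.14, adjusted p = 5.76e-06). H6pd, which runs the first oxidative steps inside the endoplasmic reticulum, went the opposite way to G6pdx, with 83 ± 9.45 CPM and 203 ± 2.79 CPM (SD, n = 3) in the same groups. The difference was 1.29 ± 0.09, adjusted p = 9.59e-08. In the rescue table H6pd measured 47.6 ± 0.915 CPM in WT and 126 ± 12.8 CPM (SD, n = 2) in Cxcl5-/-, a difference of 1.40 ± 0.10, adjusted p = 2.08e-06. Shpk, a sedoheptulose kinase, was also higher in rescue Cxcl5-/- than in rescue WT (2.50 ± 0.28), where 5 of 25 tested genes were higher and 5 lower, beside 17.6% and 24.3% of all genes.

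Overexpression of Hif1a or of Myc in Cxcl5-/- spheroids was accompanied by higher levels of most of these genes. Against rescue Cxcl5-/-, 23 of 34 genes were higher and 1 lower in Hif1aOE, beside 20.5% and 15% of all genes. In MycOE 23 were higher and 1 lower, beside 21.6% and 18%. The medians were 0.93 in Hif1aOE and 1.05 in MycOE, with 0.16 and 0.11 over all genes. Both comparisons share the 2 rescue Cxcl5-/- libraries, so their likeness is not independent. Library totals gave 4335 genes higher and 5604 lower over all genes in Hif1aOE (5904 and 4308 with TMM) and 4271 and 7482 in MycOE (6205 and 5167 with TMM). Of the genes described, Hk1, Gpi1, Eno2 and Rpia then lost their higher calls in Hif1aOE, and Pfkm was also lower. In MycOE Pgm2 and Rpe lost theirs, and Hk1, Pfkfb1, Pfkfb2, Pfkfb4 and Eno2 were also lower. Summed fibroblast markers were 136 to 173 CPM in Hif1aOE and 312 to 343 CPM in MycOE, against 458 to 466 CPM in rescue Cxcl5-/-. Summed epithelial markers were 705 to 837 CPM and 267 to 312 CPM against 287 to 302 CPM. Summed macrophage markers were 44.9 to 63.2 CPM and 59.7 to 76.7 CPM against 34.5 to 34.7 CPM, with no overlap, while Ptprc, Adgre1, Csf1r and Itgam stayed under 1 CPM in these groups. The part of these markers was not tested. In MycOE the epithelial sum overlapped that of rescue Cxcl5-/-.

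For glucose entry, Slc2a1 measured 62.9 and 54.8 CPM in rescue Cxcl5-/-, 168, 148 and 162 CPM in Hif1aOE and 183, 209 and 251 CPM in MycOE. Every overexpressing library was above both Cxcl5-/- libraries and below both WT libraries (1.44 ± 0.13 and 1.86 ± 0.13 against Cxcl5-/-). Hk2 measured 115, 84.9 and 97.7 CPM and 77.8, 84.2 and 95.1 CPM against 42.1 and 41.3 CPM (1.25 ± 0.13 and 1.04 ± 0.13). Hk1 was higher in Hif1aOE by a small amount (0.29 ± 0.08, adjusted p = 0.0132), which was lost when certain libraries were left out. It did not pass the test in MycOE (0.07 ± 0.08, adjusted p = 0.537).

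At the hexose phosphate steps, 6 of 7 genes were higher in each line and Pfkm was the one that was not called. Pfkp measured 187, 181 and 179.8 CPM in Hif1aOE and 222, 236 and 251 CPM in MycOE, between 97.4 and 88.6 CPM in Cxcl5-/- and 389 and 381 CPM in WT (0.97 ± 0.08 and 1.34 ± 0.09). Aldoc rose beyond both control groups, to 49.6, 45.1 and 50.8 CPM and 59.3, 48.3 and 53.7 CPM. Against rescue WT it was higher in Hif1aOE (4.94 ± 0.35, adjusted p = 6.71e-06) and in MycOE (5.09 ± 0.35, adjusted p = 1.93e-06). Aldoa measured 1519 to 1706 CPM and 1914 to 2284 CPM, where rescue Cxcl5-/- had 925 to 973 CPM and rescue WT 2253 to 2299 CPM.

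Pfkfb4 showed the widest called difference between the lines. It measured 26.8, 26.5 and 24.7 CPM in Hif1aOE, overlapping the 28.5 and 25.3 CPM of rescue WT, and 11.7, 11.5 and 12.9 CPM in MycOE, below the 13.6 and 13.4 CPM of rescue Cxcl5-/-. It was called in Hif1aOE (0.95 ± 0.10, adjusted p = 2.77e-05) and not in MycOE (-0.16 ± 0.10, adjusted p = 0.22). The direct comparison of MycOE with Hif1aOE gave -1.11 ± 0.09, adjusted p = 7.43e-06. Pfkfb3 was higher in both lines, at 2.86, 2.83 and 2.40 CPM in Hif1aOE and 4.29, 5.07 and 5.27 CPM in MycOE against 0.789 and 0.690 CPM. It was higher in MycOE than in Hif1aOE (0.85 ± 0.18, adjusted p = 0.00682). Per kilobase Pfkfb3 made up 1.42% of the PFKFB level in rescue Cxcl5-/-, 3.62% in Hif1aOE and 10.1% in MycOE.

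Eno2 showed a similar split. It measured 25, 28.3 and 24.9 CPM in Hif1aOE and 17.7, 14.6 and 14.1 CPM in MycOE, against 18.4 and 19.1 CPM in rescue Cxcl5-/-. The lines differed by -0.76 ± 0.11, adjusted p = 0.000701. Eno3 in contrast was higher in both, at 94.3 to 119 CPM and 138 to 164 CPM against 53.8 to 55.2 CPM (0.92 ± 0.11 and 1.45 ± 0.12). Pgk1 was higher by 0.97 ± 0.10 and 1.38 ± 0.10, Pkm by 1.17 ± 0.11 and 1.11 ± 0.11, and Pgam1 by 0.89 ± 0.10 and 1.05 ± 0.10. Eno1 was called in MycOE (0.66 ± 0.15, adjusted p = 0.00465) and not in Hif1aOE (0.41 ± 0.15, adjusted p = 0.0575). The difference between the lines was itself not called (0.26 ± 0.13, adjusted p = 0.228).

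In the pentose phosphate arms, Tkt rose beyond WT in MycOE. It measured 136 and 145 CPM in rescue Cxcl5-/-, 297, 300.4 and 296 CPM in Hif1aOE and 439, 404 and 420.1 CPM in MycOE, where rescue WT had 279 and 270.2 CPM. The difference from rescue WT was 0.62 ± 0.08, adjusted p = 0.00014 in MycOE, and from Hif1aOE 0.50 ± 0.07, adjusted p = 0.000335. G6pdx had the reverse order, at 179, 189 and 162 CPM in Hif1aOE and 149, 137 and 129 CPM in MycOE (-0.35 ± 0.08, adjusted p = 0.00959). Each of these lay above the 88.2 and 89.7 CPM of rescue Cxcl5-/-. Pgd was the gene that fell in both lines, from 100.9 and 94.5 CPM to 65.5, 75.2 and 71.5 CPM in Hif1aOE (-0.47 ± 0.09, adjusted p = 0.00124) and 59.7, 59.999 and 56.5 CPM in MycOE (-0.73 ± 0.09, adjusted p = 3.74e-05). Among the other pathway genes, Slc2a6, a lysosomal hexose transporter, was higher in MycOE (2.25 ± 0.15, adjusted p = 7.5e-07), and H6pd was lower in Hif1aOE (-1.35 ± 0.09, adjusted p = 1.4e-06).

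**Figure D3:**
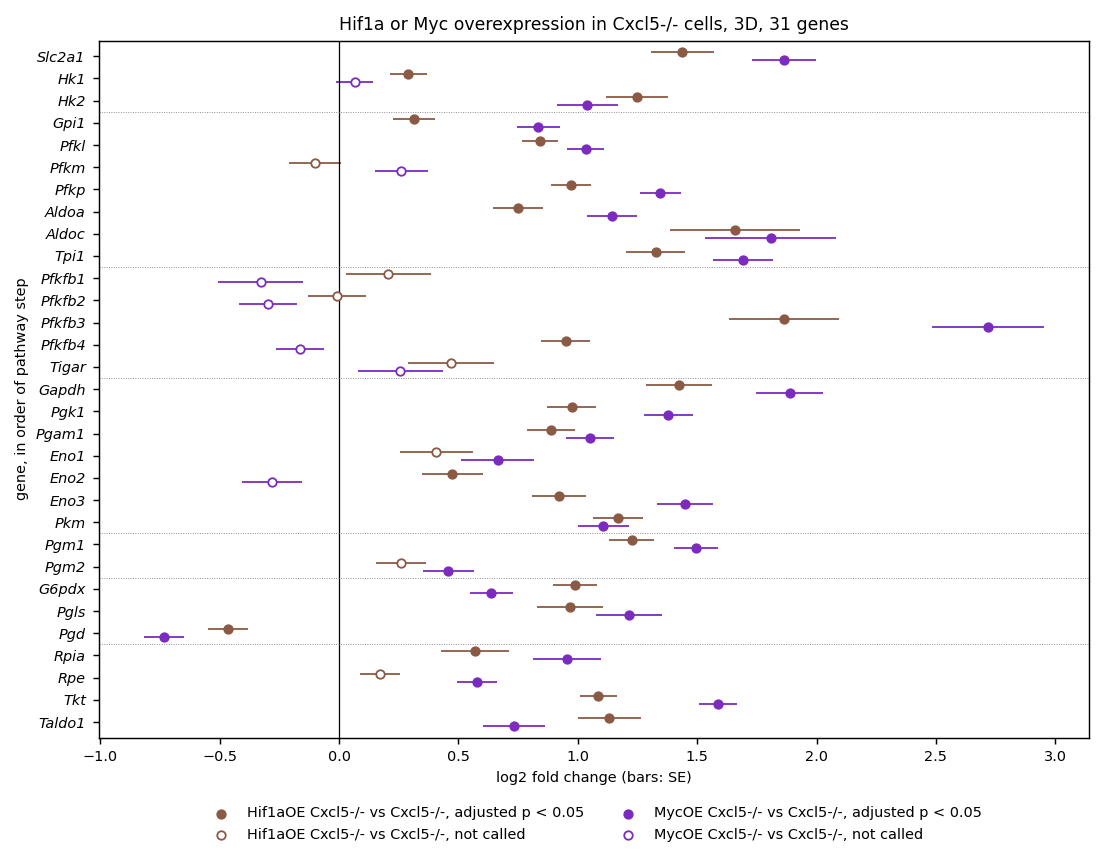
Log2 difference of Hif1aOE (brown) and MycOE (purple) spheroids from rescue Cxcl5-/- spheroids, with bars of 1 SE and filled symbols for an adjusted p below 0.05 (n = 3 against 2). Nearly all symbols lie right of 0; Pgd lies left of it in both lines, and Pfkfb4 and Eno2 lie right of it in brown and left of it in purple.

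Both lines still differed from rescue WT at several steps. Hif1aOE was lower than WT in 15 of 34 genes and higher in 5, beside 10.3% and 13.9% of all genes. MycOE was lower in 11 and higher in 7, beside 14.7% and 17.1%. Pfkp remained below WT in both (-1.08 ± 0.08 in Hif1aOE and -0.71 ± 0.08 in MycOE), as did Hk2 (-0.83 ± 0.12 and -1.04 ± 0.12) and Hk1 (-0.63 ± 0.08 and -0.85 ± 0.08). Slc2a1 was below it too (-0.78 ± 0.12 and -0.36 ± 0.12), but the Slc2a1 call in MycOE was lost when certain libraries were left out (adjusted p up to 0.225). Pfkfb4 was below WT in MycOE (-1.16 ± 0.10, adjusted p = 9.14e-06). The counts over all genes in these comparisons depended on scaling. For Hif1aOE they were 4001 higher and 2961 lower with TMM, 2209 and 3587 with library totals and 2584 and 3798 with DESeq2 size factors. For MycOE they were 4903 and 4225, 2477 and 6217, and 3739 and 5115 in the same order. The genes described followed. With library totals Eno3, Pkm and Taldo1 were also lower in Hif1aOE, and the higher calls of Pfkfb1 and Pfkfb2 were lost. In MycOE Aldoa, Tpi1, Pgk1, Pgam1, Pgm1, G6pdx and Rpe were then also lower, and the higher calls of Pfkl, Pfkm, Pfkfb3 and Eno2 were lost. The gap between 15 and 11 lower genes therefore depended on scaling. Between the lines, 13 genes were higher and 7 lower in MycOE than in Hif1aOE, beside 9.54% and 9.73% of all genes. All genes gave 2742 and 2796 with TMM and 1982 and 3504 with library totals. Gpi1 (0.52 ± 0.08), Pgk1 (0.40 ± 0.09) and Aldoa (0.39 ± 0.09) were among the higher ones, and the difference in Gapdh was not called once its copies were added (adjusted p = 0.0782).

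**Figure D4:**
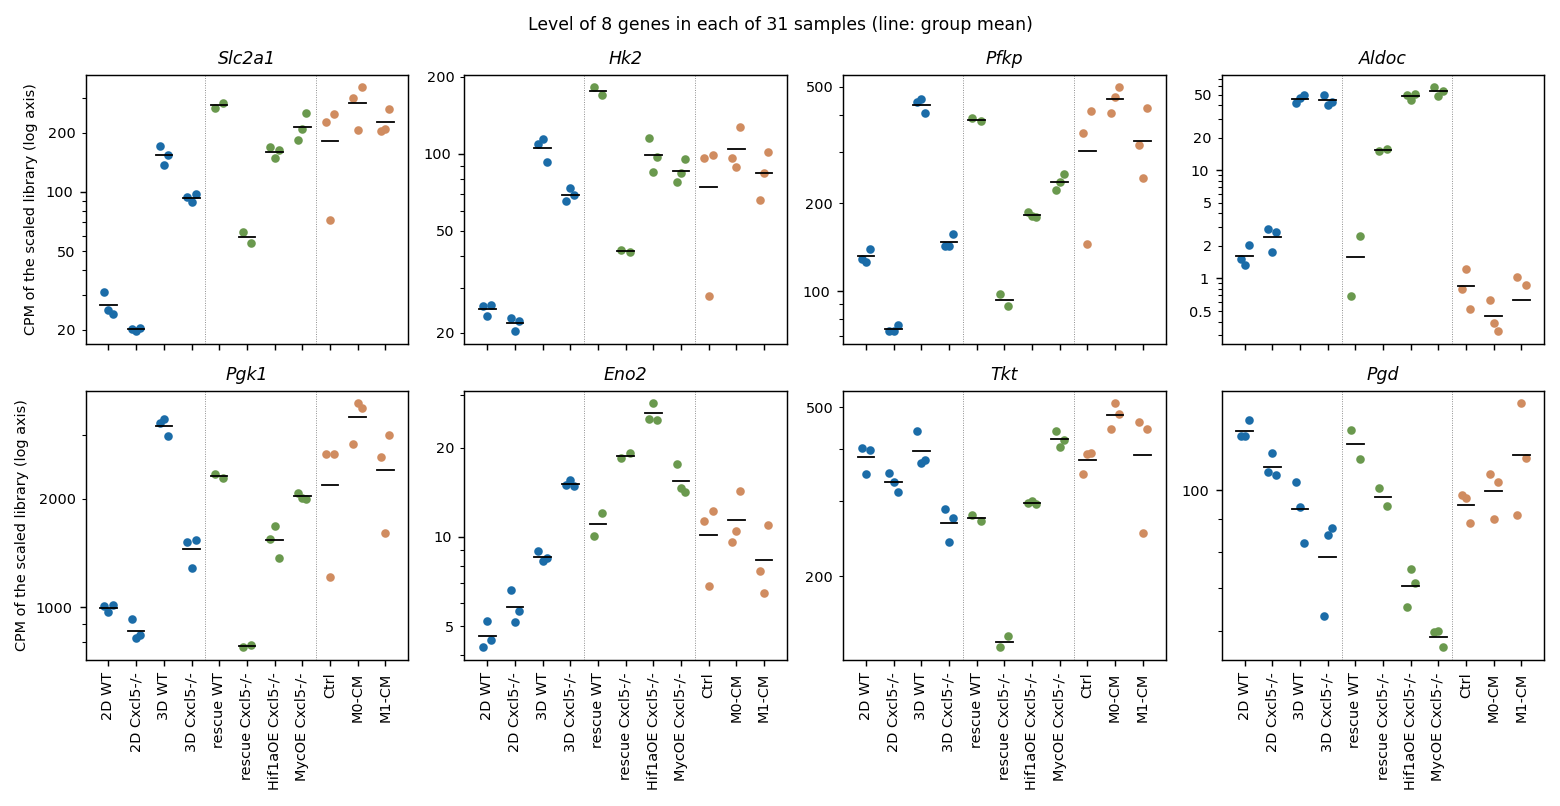
CPM on a log axis for 8 genes in each library of the 11 groups (blue, culture table; green, rescue table; orange, medium table), with a line at each group mean; the 3 tables were scaled separately. Aldoc in M1-CM replicate 2 is 0 and cannot be drawn on this axis, and Ctrl replicate 2 lies low for Slc2a1, Hk2, Pfkp and Pgk1.

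Ratios of isoenzymes within a library do not depend on how libraries are scaled, so 8 of them were compared by exact two-sided permutation tests, 16 relations in all. For 3D against 2D culture, with labels permuted within genotype, the smallest p the design allows is 0.005. By the exact permutation test 5 ratios reached it, each with an adjusted p of 0.016. The log2 ratio changed by 0.98 for Hk2 over Hk1, by 1.11 for Pfkp over Pfkm, by 2.66 for Pfkfb3 over Pfkfb4, by 1.66 for Pgm1 over Pgm2 and by -3.14 for Aldoa over Aldoc. Pfkp over Pfkl (exact p = 0.115) and Eno1 over Eno2 (exact p = 0.22) did not. Both moved in opposite directions in the genotypes, Pfkp over Pfkl by 0.16 in WT and -0.62 in Cxcl5-/- and Eno1 over Eno2 by 0.40 and -1.03. Slc2a1 over Slc2a3 (exact p = 0.075) rests on a gene with almost no counts.

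For Cxcl5-/- against WT in 3D, with labels permuted within the culture and rescue tables, the smallest exact p is 0.0167. Pfkp over Pfkl changed by -1.33, Pfkp over Pfkm by -1.57, Pfkfb3 over Pfkfb4 by -0.67, Eno1 over Eno2 by -2.04 and Aldoa over Aldoc by -2.91, each with an adjusted p of 0.0242 by the exact permutation test. Eno1 over Eno2 moved alike in the tables (-1.97 and -2.11), while Aldoa over Aldoc moved by -0.99 in the culture table and -4.82 in the rescue table. Hk2 over Hk1 moved in opposite directions, by 0.49 and -1.16 (exact p = 0.333). Pgm1 over Pgm2 changed by -0.52 (exact permutation, adjusted p = 0.0444) and Slc2a1 over Slc2a3 by 2.41, again with Slc2a3 near 0.

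**Figure D5:**
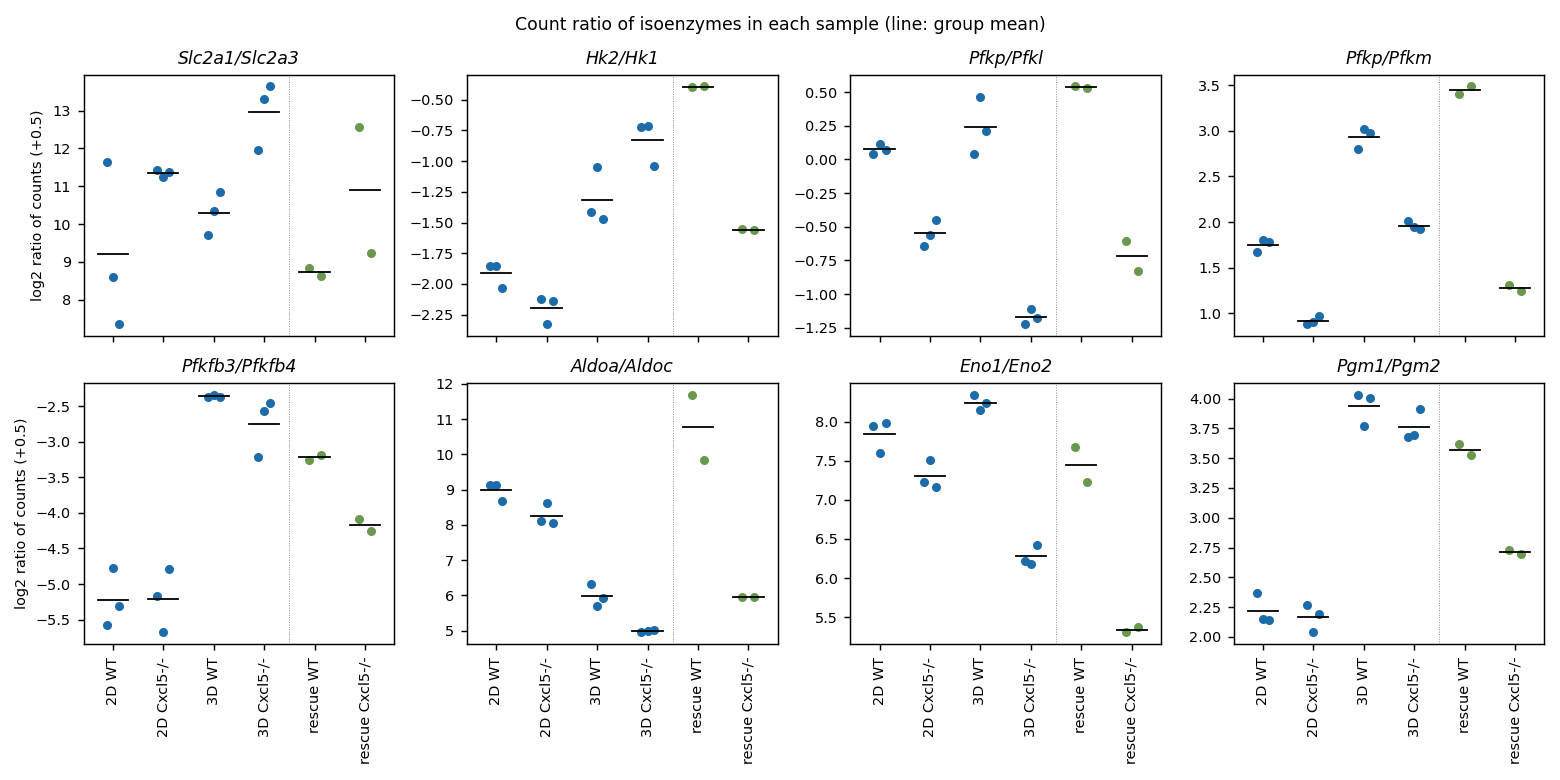
Log2 ratio of counts, with 0.5 added to each, for 8 isoenzyme pairs in each library of 6 groups, the 4 of the culture table and the WT and Cxcl5-/- groups of the rescue table. Pfkp over Pfkl and Eno1 over Eno2 are lower in Cxcl5-/- than in WT spheroids of both tables, and Aldoa over Aldoc is far higher in rescue WT than in 3D WT.

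Summed per kilobase over the glycolytic steps, the level was 2340 ± 136 CPM per kb in 2D WT, 2056 ± 97.9 in 2D Cxcl5-/-, 5879 ± 487 in 3D WT and 2951 ± 283 in the 3D libraries labelled Cxcl5-/- (SD, n = 3). The oxidative pentose phosphate genes summed to 4.17% of that level in 2D WT and 1.59% in 3D WT, and the non-oxidative genes to 6.38% and 2.42%. In the 3D Cxcl5-/- libraries the shares were 2.47% and 3.17%. The glycolytic sum in the rescue table was 1790 CPM per kb in Cxcl5-/- and 4599 in WT (n = 2), and 3385 ± 305 in Hif1aOE and 4052 ± 200 in MycOE (SD, n = 3). The oxidative share was 3.21%, 1.84%, 2.79% and 2.10% in the same order. These sums are descriptions without a test and leave out the Gapdh copies.

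Macrophage medium was accompanied by no called change in these genes. Of the 34 genes, 31 were tested in the medium table, since Slc2a3, Slc2a4 and Hkdc1 did not pass the filter. By edgeR's quasi-likelihood test 0 were called in M1-CM against Ctrl, where 0.0156% of all genes were higher and 0% lower. At an unadjusted p under 0.05 there were 1 higher and 0 lower (3.05% and 1.65% of all genes), and DESeq2 called 0. Against Ctrl, M0-CM gave 0 called, beside 0% of all genes in each direction. At an unadjusted p under 0.05 there were 7 higher and 0 lower (2.15% and 0.817% of all genes), and DESeq2 called 0. The 7 became 3 without Ctrl replicate 2 and 12 without M1-CM replicate 2. M1-CM against M0-CM gave 0 called, beside 0.0156% higher and 0% lower, with 0 at an unadjusted p under 0.05 and 0 by DESeq2.

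The spread within these groups was wide. Slc2a1 measured 225, 72.1 and 248 CPM in Ctrl, 299.9, 205 and 341 CPM in M0-CM and 204, 209 and 263 CPM in M1-CM. Pgk1 measured 2665, 1213 and 2666 CPM, 2843, 3694 and 3575 CPM and 2609, 1604 and 3014 CPM in the same order. Hk2 measured 96.6, 27.9 and 99.2 CPM, 96.2, 89.2 and 127 CPM and 65.8, 84.2 and 102 CPM. In each of the 3 genes Ctrl replicate 2 was the lowest of all 9 libraries. Without it the groups still overlapped for Slc2a1 and Hk2, while for Pgk1 the M0-CM libraries lay above both remaining Ctrl libraries. The median over the 31 genes was 0.36 in M0-CM against Ctrl, with 28 positive, and 0.13 in M1-CM against Ctrl, with 21 positive. Without Ctrl replicate 2 the medians were 0.20, with 28 positive, and 0.00, with 16 positive. Without M1-CM replicate 2 they were 0.35, with 28 positive, and 0.27, with 27 positive, so the M1-CM median depended on single libraries.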

How the data were processed

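RNA was sequenced from 31 samples in 11 groups of 2 or 3, all read as Panc02 although the rescue samples are numbered Panc03 to Panc12 in the labels. Per the labels and the study's methods, the authors made stranded total RNA libraries, aligned reads to GRCm38/mm10 with HISAT2 and used StringTie to assemble transcripts and count reads per transcript. The deposited values are whole-number read counts per gene in 3 tables, not normalized; the annotation release and how counts per gene were formed are not given in the sources used here. No deposited column was left unused.

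Counts were tested with edgeR 4.0.16 (quasi-likelihood test, R 4.3.3), 1 fit per table over all its groups, TMM scaling, filterByExpr by group, and Benjamini-Hochberg adjustment over all genes tested (19207, 21367 and 28730); a call is an adjusted p under 0.05 and SE is the log2 fold change over the square root of F. CPM is the count per 1e6 counts of the TMM-scaled library total. Rows without a symbol (1542 in the culture table and 310 in the rescue table) were kept in the fits. Levels between genes use the length of the union of a gene's annotated exons in GRCm38 (GENCODE vM21), which can exceed the length of its main transcript. Copies of a gene are loci at least 95% identical over at least 500 bases, and unique assignment of reads among them is uncertain. Isoenzyme ratios (0.5 added to each count) were compared by exact two-sided permutation. The 34 genes and all lists were chosen with earlier results of these data known; all 34 may be named, and of the 30 other pathway genes those called with a log2 fold change beyond 1. Alternatives were DESeq2 1.42.0, other scalings and filters, a replicate block, summed rows, added copies (chosen after seeing the data) and samples left out in turn. The edgeR code was tested on simulated data. Depth was 41542533 to 78498230 counts; a count of 0 was bounded by 3 counts over the group.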

Additional observations from a re-analysis of the deposited data

Results flagged for a closer look

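The interaction of genotype with culture passed the test for 21 genes in edgeR's quasi-likelihood fit with TMM scaling. It was negative for 20 and positive for 1, beside 16.1% and 11.1% of all genes. For these the difference between libraries labelled Cxcl5-/- and WT was not the same in 3D as in 2D in that fit. Of the 20 negative calls, 15 held when any library was left out and 10 held under both other scalings. In uptake and the hexose phosphate steps the log2 interaction was -1.176 for Hk1, -0.4199 for Hk2, -0.4426 for Gpi1, -0.5995 for Pfkm, -0.7381 for Pfkp, -0.9102 for Aldoa and -0.73 for Tpi1. From triose phosphate to pyruvate it was -1.688 for Gapdh (-0.85 with its near-identical copies added), -0.924 for Pgk1, -0.6588 for Pgam1, -0.9286 for Eno1, -0.4798 for Eno3 and -0.876 for Pkm. Pgm1 had -0.9872 and Pgm2 -0.855. Among genes that set fructose-2,6-bisphosphate it was 0.6351 for Pfkfb2, -1.152 for Pfkfb3 and -0.7804 for Pfkfb4, and in the pentose phosphate arms -0.8406 for Pgls, -0.4104 for Rpe and -0.7583 for Taldo1.

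Pfkm and Pfkfb1 stood out because the culture and rescue tables separated Cxcl5-/- from WT spheroids in opposite directions, with no overlap in either. The log2 ratio of mean CPM was 0.7031 higher in the rescue table than in the culture table for Pfkm and 0.881 higher for Pfkfb1. The difference between the tables was not tested, and neither gene passed the test in the rescue table. The culture table side depended on scaling. With library totals the differences there were -0.20 for Pfkm and -0.04 for Pfkfb1, and neither was called. The Pfkfb1 call was also lost with DESeq2 size factors.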

How the results depend on the processing

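Directions and calls of single genes held in most alternatives: of the values recomputed with a sample left out, 4559 kept direction and side of the threshold, 191 lost the call and 41 gained it. Signs that turned were those of Gapdh with its copies added in 3D Cxcl5-/- against 2D Cxcl5-/- (0.8333), and with library totals those of G6pdx (0.1322) and Rpia (0.0308) in 3D Cxcl5-/- against 3D WT, Hk1 in MycOE against rescue Cxcl5-/- (-0.2736) and Pfkl in MycOE against rescue WT (-0.0553).

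Counts of called genes moved by more than 1.5 times as follows; the cause was not tested. With library totals, the lower counts were 10 in 3D WT against 2D WT, 1 in 2D Cxcl5-/- against 2D WT, 17 in 3D Cxcl5-/- against 3D WT, 10 for the interaction, 2 in Hif1aOE and 6 in MycOE against rescue Cxcl5-/- and 18 in MycOE against rescue WT, and the higher counts were 2 for the interaction, 3 in Hif1aOE and 3 in MycOE against rescue WT. With DESeq2's Wald test 1 was higher in 2D Cxcl5-/-, 2 for the interaction and 17 lower in MycOE against WT. With DESeq2 size factors 4 were higher in MycOE against WT. With at least 10 counts in every sample there were 2 higher for the interaction, 3 lower in MycOE against rescue Cxcl5-/- and, against WT, 4 higher and 17 lower. Without a filter 1 was lower in 2D, with copies added 2 were higher for the interaction, and in a fit of only the groups compared 4 were lower in MycOE than in Hif1aOE. Leaving out samples, where a lone sample of a group is assumed to vary like the other groups, gave 0 to 1 higher (1 without 2D WT replicate 3 or 2D Cxcl5-/- replicate 2) and 1 to 2 lower in 2D, 1 to 2 higher (2 without 2D Cxcl5-/- replicate 1) and 15 to 23 lower for the interaction, 1 to 2 lower in MycOE against rescue Cxcl5-/- (2 without MycOE replicate 1), 3 to 6 lower in MycOE against Hif1aOE, 3 to 5 higher in Hif1aOE against WT (3 without rescue WT replicate 2), and 3 to 8 higher and 6 to 12 lower in MycOE against WT, with the low ends from leaving out a rescue WT library or MycOE replicate 1. Of the ratios for Cxcl5-/- against WT, 4 to 7 passed (4 without 3D WT replicate 1).

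Correlations of the deviations of same-numbered samples ran from -0.236 to 0.359 in the medium table, -0.0958 to 0.1797 in the culture table and -0.0245 to 0.0498 in the rescue table. Not every pair was over 0.1, so the numbers were not taken to pair samples, although the Ctrl and M0-CM pairs were all positive (0.359, 0.246 and 0.0714). With the block 0 genes were called between those groups, as without it. With the replicate block 2 genes were lower in MycOE against rescue Cxcl5-/-, and 3D Cxcl5-/- against 3D WT gave 4279 higher and 5456 lower calls over all genes. Depth limits low genes such as Slc2a3, Slc2a4 and Hkdc1. In simulated data with 200 changed genes, 2-fold changes were recovered in 18% of cases for M1-CM against Ctrl (19207 genes), 54% for 3D Cxcl5-/- against 3D WT (21367 genes) and 29% for rescue Cxcl5-/- against rescue WT (28730 genes), and 4-fold changes in 56%, 72% and 51%. Far more than 200 genes were called in the real culture and rescue comparisons, so these rates need not hold for them.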
